A study of Mus musculus with 6 samples.

Results

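Icam1, Icam2, Icam4, Icam5 and Vcam1 encode adhesion molecules of the immunoglobulin superfamily. These 5 of the 55341 gene symbols in the mouse annotation form the group described here, which is not the whole superfamily. The genes were chosen by name, with the peak calls of Icam1 and its neighbours already known, so their values are a description and carry no test. Each gene was measured by the share of its promoter lying under called peaks, where a promoter covers 1000 bp on each side of every annotated transcript start. The 3 neighbouring genes Icam1, Icam4 and Icam5 were also measured as 1 interval.

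The peaks come from chromatin immunoprecipitation sequencing (ChIP-seq) of colonic organoids, which are epithelial cultures grown from mouse colon. The organoids were of C57BL/6 genotype and were either left untreated (wt) or given TNFα at 40 ng/ml over 3 weeks (wt+TNFα). For each condition there was 1 library for H3K4me3, 1 for H3K27me3 and 1 input, which makes 6 samples and 4 peak lists, and the labels give a target depth of 40 M reads per input and per H3K4me3 library and 60 M per H3K27me3 library. The study's reporting summary lists more total reads in wt+TNFα than in wt for H3K4me3 and for the input, and the part of depth in the results was not tested. Because libraries were not replicated, no difference could be set against replicate error, so no p-value or error is given, and a region without a peak is one where none was called, not one shown to lack the mark.

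Trimethylation of histone H3 at lysine 4 (H3K4me3) marks the starts of active or poised genes, and trimethylation at lysine 27 (H3K27me3) is deposited by Polycomb repressive complex 2 over silent genes. ICAM-1 is the ligand on epithelial and endothelial cells for the leukocyte integrins LFA-1 and Mac-1, and its gene is a classical target of TNFα and NF-κB. ICAM-2 is found on endothelial cells and leukocytes, ICAM-4 on red blood cells and ICAM-5 on neurons of the forebrain, whereas VCAM-1 is the cytokine-induced endothelial ligand of the integrin α4β1.

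The 4 lists differ as wholes. The H3K4me3 lists were close in size, with 11552 peaks in wt and 11894 in wt+TNFα, but the H3K27me3 list grew from 30594 peaks over 102 Mb to 60540 peaks over 303 Mb. The wt+TNFα H3K27me3 list is the 1 list whose name does not mention a spike-in, so whether the H3K27me3 lists were scaled alike is unknown, and this bears on every gain and loss of H3K27me3 given here. The length of chromosome X under H3K27me3 was 0.597 Mb in wt but 74.7 Mb in wt+TNFα, and chromosome Y, with 3 H3K4me3 peaks in wt, held 0 in wt+TNFα. The labels do not say whether both cultures came from the same animal or from animals of the same sex, so TNFα and such a difference between the cultures cannot be told apart at the members, although none of them lies on either chromosome. Of 10 epithelial marker genes, 10 had an H3K4me3 promoter peak in wt and 9 in wt+TNFα, where Krt20 had none. The 6 leukocyte and 5 fibroblast markers had none in either condition, and of 8 endothelial markers Egfl7 alone had one, in both conditions.

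The promoters of the 3 clustered genes are printed first so that the stretches at Icam1 and Icam5, where promoter peaks were called, can be read beside that of Icam4, where none was. The stretches run up to the annotated start of each gene, on the plus strand of GRCm38/mm10, and come from the RefSeq promoter table (GRCm38.p6). Capitals mark matches, on either strand, to the searched motifs GGAAATTCC, TTCNNNGAA, GGGCGG (which appears as CCGCCC on the strand printed) and TATAAA.
Icam1 (chr9:21015690-21015984): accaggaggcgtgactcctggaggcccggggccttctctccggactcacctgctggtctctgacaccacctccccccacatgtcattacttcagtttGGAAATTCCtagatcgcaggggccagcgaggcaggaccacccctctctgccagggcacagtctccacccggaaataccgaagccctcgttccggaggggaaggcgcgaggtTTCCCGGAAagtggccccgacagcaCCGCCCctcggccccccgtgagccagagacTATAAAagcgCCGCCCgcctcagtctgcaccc
Icam4 (chr9:21029182-21029372): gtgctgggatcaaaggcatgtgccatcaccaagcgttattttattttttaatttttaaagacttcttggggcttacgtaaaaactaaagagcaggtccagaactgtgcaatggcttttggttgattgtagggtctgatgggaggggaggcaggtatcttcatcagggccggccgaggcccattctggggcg
Icam5 (chr9:21031788-21032072): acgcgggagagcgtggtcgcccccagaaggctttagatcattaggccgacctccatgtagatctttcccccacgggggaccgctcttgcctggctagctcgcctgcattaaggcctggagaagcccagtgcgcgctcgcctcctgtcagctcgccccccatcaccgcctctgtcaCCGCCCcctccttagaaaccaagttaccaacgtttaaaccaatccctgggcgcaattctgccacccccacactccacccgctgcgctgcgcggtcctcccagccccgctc

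The Icam1 stretch held the most of these letters. GGAAATTCC, which was added to the search after the Icam1 promoter had been read, lay at −198 to −190 bp from the start, and 0.317% of 32851 promoters of the table hold it. TTCNNNGAA, the spacing recognised by STAT proteins, began at −87 bp (8.30% of promoters), TATAAA, the TATA box, began at −32 bp (13.6%), and GGGCGG, the GC box, matched at 2 positions (35.7%). The Icam5 stretch held 1 GC box, beginning at −110 bp, and the Icam4 stretch held none of the motifs, although a GC box lies 51 bp into the gene. The NF-κB consensus was searched as GGGRNNYYCC, where R is A or G, Y is C or T and N is any base. This consensus and TGANTCA, the AP-1 site, are held by 8.46% and 7.81% of promoters and were found in none of these 3 windows. GGAAATTCC does not match this strict pattern, so the lack of a match does not show that the Icam1 promoter lacks other NF-κB sites. These matches describe letters and do not show binding.

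All 3 promoters were richer in CpG than the median promoter. Over the whole entry of the table, the observed over expected CpG ratio was 0.623 at Icam1, 0.590 at Icam4 and 0.831 at Icam5, against a median of 0.384, which placed them at the 65.7, 63.6 and 81.6 percentiles of 32851 promoters. The GC content was 64.7%, 54.3% and 63.7% in the same order. Icam4, which had no peak of either mark, was thus near Icam1 in its CpG ratio and below both of its neighbours in GC content.

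Icam1 had H3K27me3 and no H3K4me3 at its promoter in wt, and H3K4me3 and no H3K27me3 in wt+TNFα. The gene spans chr9:21015985-21028817 on the plus strand, and both of its annotated transcripts begin at the same base. In wt organoids no H3K4me3 peak was called at the gene, and the nearest one ended 12119 bp upstream, at Mrpl4. In wt+TNFα organoids an H3K4me3 peak of 1553 bp (chr9:21015823-21017375) covered 58.1% of the promoter. Its fold enrichment over the local background was 11.2 and its −log10 q was 46.2. The peak reached from 162 bp upstream of the start through the first exon and 1274 bp of intron, and its summit lay 706 bp inside the gene.

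This peak was low for its list and of middling width. Its width was at the 52.3 percentile of the wt+TNFα H3K4me3 peaks. Its fold enrichment was at the 16.9 percentile of the same list, whose median was 27. Its −log10 q was at the 16.6 percentile, so the call was absent when only peaks above the median −log10 q were kept. Among the 326 protein-coding genes with an H3K4me3 promoter peak in wt+TNFα alone, however, the median fold enrichment was 7.49, and Icam1 stood at the 78.2 percentile.

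The H3K27me3 peak that Icam1 had in wt was weak. It spanned 1040 bp (chr9:21015778-21016817) and covered 52.0% of the promoter, with a fold enrichment of 1.96 and a −log10 q of 0.447, at the 10.7 and 15.1 percentiles of its list. That −log10 q lies under the value of 2 that the study names as its threshold for this mark, and the call was absent when peaks under 2 were left out. The deposited wt list was not cut at that value, since its lowest −log10 q was 0.302 and its median 0.779. Most of its peaks thus also lie under 2. In wt+TNFα the nearest H3K27me3 peak began 17796 bp downstream of the start, inside Icam5. The wt H3K27me3 peak and the wt+TNFα H3K4me3 peak shared 995 bp, so nearly all of the bases called for H3K27me3 in wt were called for H3K4me3 in wt+TNFα.

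The 151 bp around the summit of the Icam1 H3K4me3 peak are shown because the peak's highest point falls inside the gene and not at the promoter printed above. The stretch is wholly intronic and on the plus strand of GRCm38/mm10, and the 4 CpG dinucleotides are in capitals.
Icam1 H3K4me3 summit (chr9:21016616-21016766): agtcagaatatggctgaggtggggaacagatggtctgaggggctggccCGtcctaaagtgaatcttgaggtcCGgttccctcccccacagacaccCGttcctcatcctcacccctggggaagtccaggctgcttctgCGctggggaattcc

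The last bases of the stretch, 772 to 781 bp from the Icam1 start, match the NF-κB consensus, which 9.15% of the 634 stretches of this length around wt+TNFα H3K4me3 summits on chromosome 9 hold. None of the other motifs searched at the promoters was found in it. The observed over expected CpG ratio of this stretch was 0.298, below that of the Icam1 promoter. The whole H3K4me3 peak held 31.6 CpG per kb, against 26.8 over the interval from Icam1 to Icam5.

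**Figure D1:**
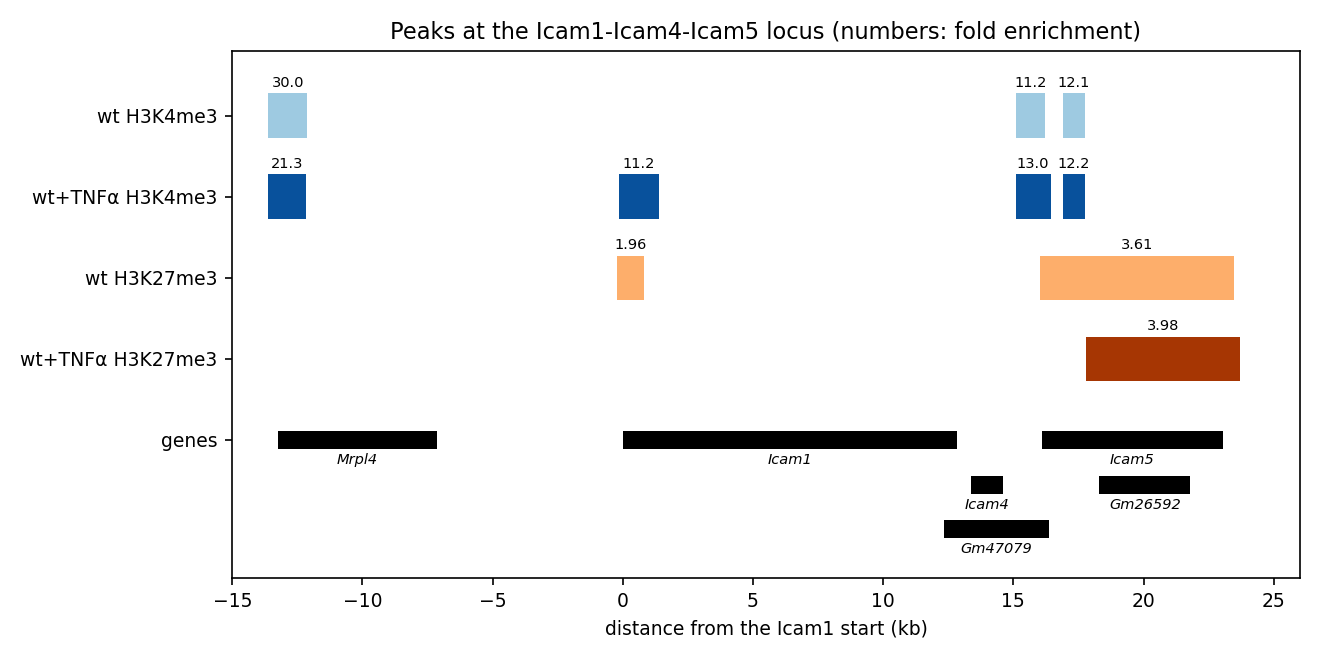
Peaks called around Icam1, Icam4 and Icam5, with the distance from the Icam1 start in kb on the horizontal axis, 1 row per peak list, the fold enrichment of each peak above its bar and the genes as black bars. An H3K4me3 peak with a fold enrichment of 11.2 stands at the Icam1 start in wt+TNFα alone, an H3K27me3 peak of 1.96 in wt alone, and the left edge of H3K27me3 at Icam5 lies further into the gene in wt+TNFα.

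Icam4, a gene of 1223 bp separated from the end of Icam1 by 555 bp (chr9:21029373-21030595, plus strand), had no peak of either mark in any list, at either of its starts or in its body. Around its first start, the nearest H3K4me3 peak began 1729 bp downstream in wt and 1700 bp downstream in wt+TNFα, and it was the peak at the Icam5 start. The nearest H3K27me3 peak began 2651 bp downstream in wt and 4408 bp downstream in wt+TNFα. Icam4, where no peak was called, therefore lay between neighbours that both carried peaks in wt+TNFα. The peak of Icam1 stood at the far, 5′ end of that gene.

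Icam5 carried both marks at its promoter in wt organoids, and in wt+TNFα organoids H3K27me3 was called over the gene body and past its 3′ end but not at the promoter. The gene spans chr9:21032073-21039036 on the plus strand and has 1 transcript. In wt, 1 broad H3K27me3 peak of 7436 bp (chr9:21032024-21039459) covered the whole gene and 52.5% of the promoter. In wt+TNFα the peak was 5909 bp long (chr9:21033781-21039689), covered 75.5% of the gene, and left the promoter without a call. The 3′ end of the peak reached 230 bp further in wt+TNFα, while its 5′ edge lay 1757 bp further into the gene.

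These were strong H3K27me3 peaks in both lists. The fold enrichment was 3.61 in wt and 3.98 in wt+TNFα, at the 98.1 and 99.3 percentiles of their lists, and the −log10 q was 7.03 and 14.5. Icam5 and Icam1 thus stood near opposite ends of the wt H3K27me3 list. Among the 265 protein-coding genes with an H3K27me3 promoter peak in wt alone, whose median fold enrichment was 2.19, Icam5 was at the 97.0 percentile and Icam1 at the 9.43 percentile.

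The H3K4me3 peaks of Icam5 changed little in height. The peak over the start had a fold enrichment of 11.2 in wt (chr9:21031102-21032217) and 13.0 in wt+TNFα (chr9:21031073-21032412). The peak inside the gene had 12.1 in wt (chr9:21032880-21033749) and 12.2 in wt+TNFα (chr9:21032874-21033734). The ratios of wt+TNFα to wt were 1.16 and 1.01, and over 10953 H3K4me3 peaks that matched 1 to 1 between the lists the median ratio was 1.07, with quartiles of 0.892 and 1.32. Both ratios therefore lay within the middle of all shared peaks. The width of the peak over the start rose from 1116 to 1340 bp, a ratio of 1.20 against a median of 1.07, and the share of the promoter under H3K4me3 went from 65.5% to 77.0%. The 230 bp of promoter gained came from edges of 29, 195 and 6 bp and were at the 78.7 percentile of the 8972 protein-coding genes with a gain.

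In wt, 1064 bp of Icam5 lay under both marks, 388 bp of them in the promoter, and in wt+TNFα 0 bp did. Of the 1757 bp at the 5′ edge that were called for H3K27me3 in wt alone, 49 bp lay upstream of the gene, 695 bp in exons and 1013 bp in introns, and 60.6% lay under wt H3K4me3. In wt+TNFα the second H3K4me3 peak ended 46 bp before the H3K27me3 peak began. The lost edge held 61.5 CpG per kb, against 33.8 in the 5679 bp that were called for H3K27me3 in both conditions.

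The 150 bp across the new H3K27me3 edge are printed because the end of one mark and the start of the other meet there. The stretch holds 110 bp of exon and 40 bp of intron of Icam5 on the plus strand of GRCm38/mm10, and its 6 CpG dinucleotides are in capitals.
Icam5 H3K27me3 edge (chr9:21033706-21033855): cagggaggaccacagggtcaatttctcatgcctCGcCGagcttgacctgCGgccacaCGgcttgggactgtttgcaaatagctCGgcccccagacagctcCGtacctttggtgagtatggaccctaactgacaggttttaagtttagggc

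Most wt H3K27me3 peaks of this size lost nothing. Of 3482 autosomal wt peaks of 5000 to 10000 bp, 63.6% were wholly called in wt+TNFα. At Icam5 23.6% of the wt peak was not called in wt+TNFα, and 86.8% of those peaks had a smaller share not called. Calls at the Icam5 start cannot be assigned to Icam5 alone, since the antisense gene Gm47079 and the microRNA gene Mir1900, both on the minus strand, begin just downstream of it and had the same peaks.

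Across the interval of 23052 bp from the start of Icam1 to the end of Icam5, H3K4me3 covered 8.62% in wt and 15.6% in wt+TNFα, or 1986 and 3592 bp. H3K27me3 covered 34.0% in wt and 22.8% in wt+TNFα, or 7846 and 5256 bp. Of 19419 autosomal windows of the same length with any H3K27me3 in wt, 83.0% had more bases under it in wt+TNFα and 16.1% had fewer, as this interval did. The bases between Icam1 and Icam4 were under no peak in any list, and the 1477 bp between Icam4 and Icam5 were under H3K4me3 for 65.7% in wt and 67.7% in wt+TNFα.

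Of the genes on either side, S1pr2, Mrpl4, Fdx1l, Gm49373, Raver1 and Gm38431 had H3K4me3 in both conditions, while Zglp1 and Mir7082 had no promoter peak in any list. S1pr2, a sphingosine-1-phosphate receptor, went from a fold enrichment of 25.8 to 21.3. Its promoter also held a wt H3K27me3 peak, with a fold enrichment of 2.29 and a −log10 q of 1.22, under the study's threshold, that was absent in wt+TNFα. Mrpl4, a mitochondrial ribosomal protein gene, went from 30.0 to 21.3. Downstream, Fdx1l and Gm49373, which share a peak, went from 22.9 to 31.8, and Raver1 and Gm38431 from 27.9 to 30.5. Gm26592, an antisense gene inside Icam5, was wholly under H3K27me3 in both conditions.

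**Figure D2:**
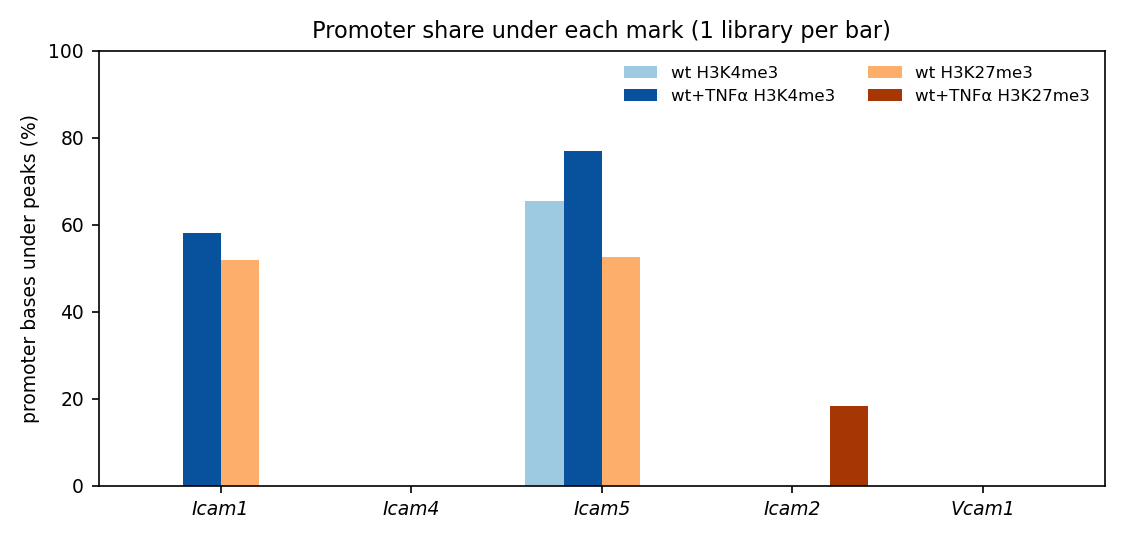
Share of the promoter bases of each member that lay under called peaks, in percent, with 1 bar per peak list and 1 library behind each bar. Icam1 has bars for wt+TNFα H3K4me3 (58.1%) and wt H3K27me3 (52.0%), Icam5 lacks wt+TNFα H3K27me3 alone, Icam2 has wt+TNFα H3K27me3 alone (18.4%), and Icam4 and Vcam1 have none.

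Icam2 lies on chromosome 11 (chr11:106377656-106388075, minus strand) and moved the other way from Icam1, gaining H3K27me3 bases. No H3K4me3 peak was called within 97392 bp of any of its 5 transcript starts. In wt an H3K27me3 peak of 1987 bp (chr11:106377666-106379652, fold enrichment 2.09, −log10 q 0.964) covered 19.1% of the gene at its 3′ end and no promoter. In wt+TNFα the peak was 3273 bp long (chr11:106377669-106380941, fold enrichment 2.14, −log10 q 2.30) and covered 31.4% of the gene.

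The promoter call at Icam2 rested on 1 start. The wider peak covered 57.0% of the promoter of Icam2-205, a transcript that begins inside the gene, and none of the promoters of the other 4 transcripts. Over all promoter bases of Icam2 the share was 18.4%, or 1141 bp, at the 47.8 percentile of the 4510 protein-coding genes with an H3K27me3 gain, whose median was 1201 bp. Beyond the 3′ end of the gene lay further H3K27me3 peaks in both conditions, the widest of 14539 bp in wt and 23140 bp in wt+TNFα.

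Vcam1 (chr3:116109949-116129688, minus strand) had no promoter peak of either mark in any list. The nearest H3K4me3 peak was 112041 bp from the closest of its 4 starts in wt and 112058 bp in wt+TNFα. One H3K27me3 peak of 1367 bp (chr3:116113119-116114485) was called inside the gene in wt+TNFα, over 6.93% of its length, with 133 bp in exon and 1234 bp in intron. Its fold enrichment of 1.77 was at the 15.9 percentile of its list and its −log10 q was 0.915. Icam1 and Vcam1, both known as TNFα targets in endothelial cells, thus differed in H3K4me3 in these epithelial cultures.

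**Figure D3:**
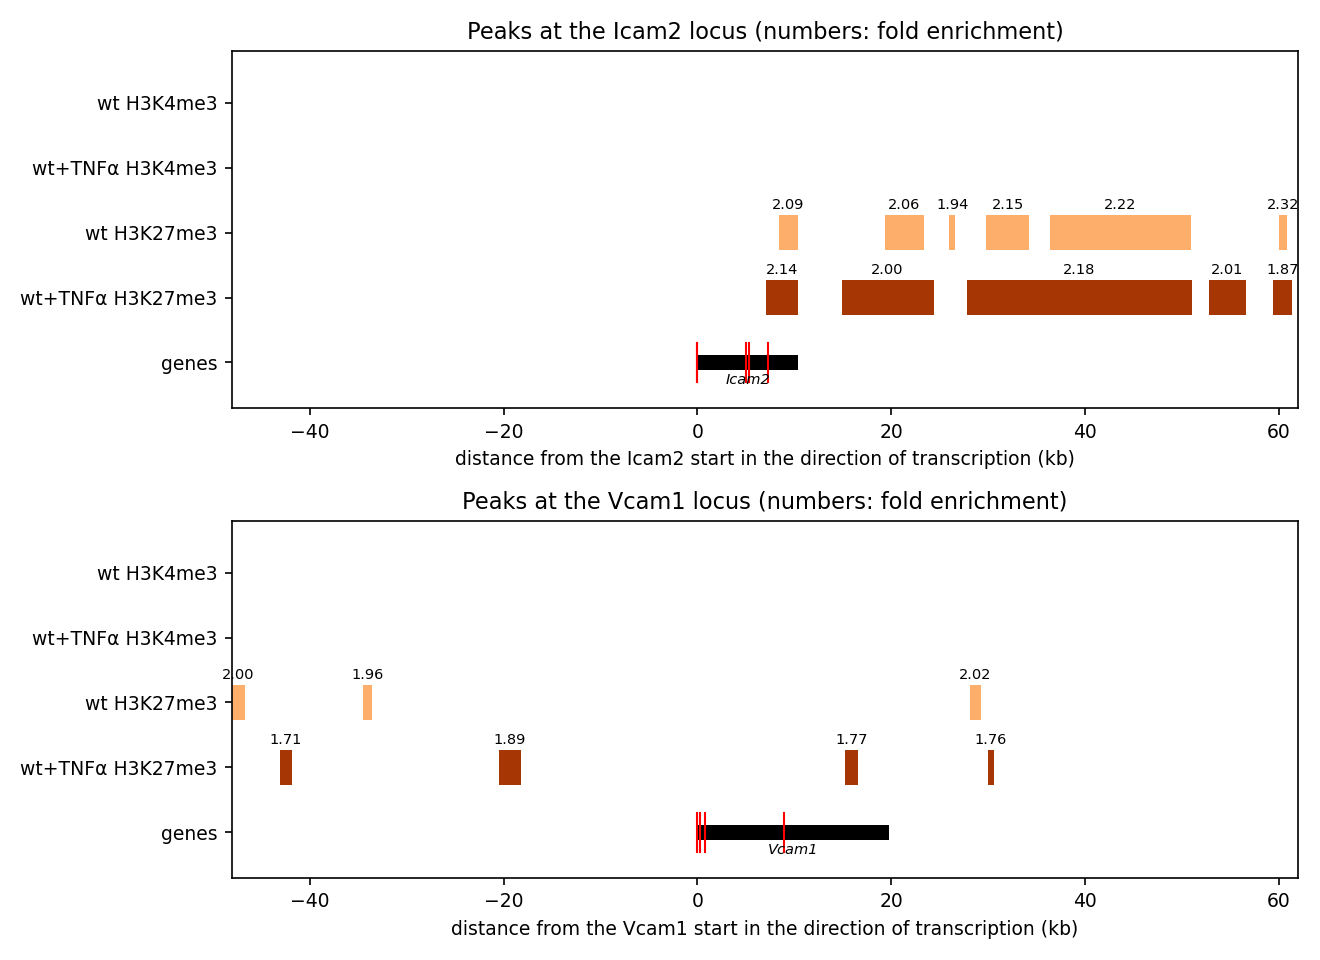
Peaks around Icam2 and Vcam1, with the distance from each gene's outermost start in kb along the direction of transcription, 1 row per peak list, the fold enrichment above each bar, the gene as a black bar and its transcript starts as red lines. No H3K4me3 peak appears in either window, the H3K27me3 peak at the 3′ end of Icam2 reaches its innermost start in wt+TNFα, and the single peak inside Vcam1 (1.77) is called in wt+TNFα.

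Counted together, H3K4me3 was gained at the promoters of 2 of the 5 members, Icam1 and Icam5, where a gain is at least 1 bp called in wt+TNFα and not in wt. By the same rule 19.4% of all symbols and 40.9% of the 21924 protein-coding ones had a gain, so 2 of 5 is near the background. An H3K4me3 loss was called at 0 members, against 9.95% of all symbols and 21.1% of protein-coding ones. H3K27me3 was lost at Icam1 and Icam5, 2 of the 5, against 3.39% of all symbols and 5.22% of protein-coding ones. It was gained at Icam2, 1 of the 5, against 17.1% and 20.6%. Since the genes were chosen with these calls known, nothing is read from the counts.

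Calls that require a promoter peak in 1 condition alone were rarer. An H3K4me3 promoter peak in wt+TNFα alone was found at 1.49% of protein-coding genes, and Icam1 was 1 of them. An H3K27me3 promoter peak in wt alone was found at 1.21%, with Icam1 and Icam5 among them. The state of Icam2, an H3K27me3 promoter peak in wt+TNFα alone, was found at 9.96% of all symbols. Both H3K27me3 in wt alone and H3K4me3 in wt+TNFα alone, the state of Icam1, were found at 25 genes or 0.114%. H3K27me3 in wt alone with H3K4me3 in both conditions, the state of Icam5, was found at 132 genes or 0.602%. No promoter peak in any list, the state of Icam4 and Vcam1, was found at 26.3%.

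**Figure D4:**
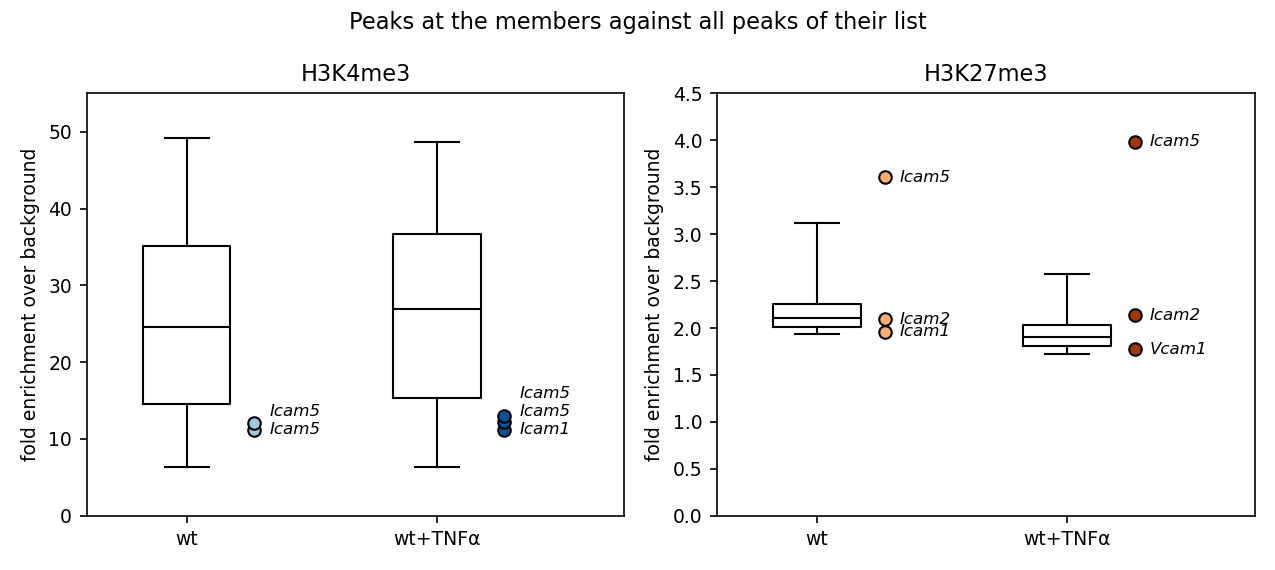
Fold enrichment of each peak at a member (points) beside all peaks of the same list, where boxes give the quartiles and median, whiskers the 5th and 95th percentiles, and the left and right panels H3K4me3 and H3K27me3. The H3K4me3 points, between 11.2 and 13.0, lie below the boxes, and the H3K27me3 points of Icam5, 3.61 and 3.98, lie above the whiskers.

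The genes whose promoters were most like each member were found over 8 values per gene, the share of the promoter under each of the 4 lists and the percentile of its strongest peak in each list, among 21902 protein-coding genes. For Icam1 they were Cavin3, which encodes a caveolar coat protein, Glipr2 and Zc2hc1c, at distances of 27.1, 27.2 and 30.2. Cavin3 went from 36.0% to 0% of its promoter under H3K27me3 and from 0% to 36.9% under H3K4me3, and Glipr2 from 55.4% to 0% and from 0% to 43.4%. Zc2hc1c went from 65.6% to 0% under H3K27me3, but it already had H3K4me3 over 21.3% of its promoter in wt, against 53.4% in wt+TNFα. For Icam5 they were Evx1, a homeobox gene, Zc3hav1l and Slc25a4, the mitochondrial ADP/ATP carrier, at distances of 42.7, 46.1 and 49.5. For Icam2 they included Cd59a, a complement inhibitor, and Col11a1, a fibrillar collagen, at distances of 0.665 and 1.55. Icam4 and Vcam1 shared their lack of any promoter peak with 5754 genes. The match was closer for Icam2, which has 1 promoter peak, than for Icam1 and Icam5.

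Among 41 related adhesion genes, H3K4me3 was gained at 16 promoters and lost at 4, and H3K27me3 was gained at 19 and lost at 4. Over protein-coding genes the background was 40.9% and 21.1% for H3K4me3 and 20.6% and 5.22% for H3K27me3. With whole peaks subtracted, the counts among the related genes were 4, 0, 8 and 2 in the same order, and the calls over all symbols fell as well. The list holds 10 leukocyte receptors, among them the integrin subunits that bind ICAMs and VCAM-1, 26 other adhesion molecules and 5 proteins that link adhesion molecules to the actin cytoskeleton. H3K4me3 was called at 1 of the 10 receptors in each condition, Itgb1, whose fold enrichment was 27.2 in wt and 45.1 in wt+TNFα. The share of its promoters under H3K4me3 was 39.9% and 41.3%, and both a gain and a loss were called there. H3K4me3 was called at 10 of the 26 other adhesion molecules in wt and 13 in wt+TNFα, and at 4 and 5 of the 5 linkers. H3K27me3 was called at 4 receptors in wt and 6 in wt+TNFα, at 14 and 16 of the other adhesion molecules, and at 2 linkers in each. Of all protein-coding genes, 50.5% in wt and 51.2% in wt+TNFα had an H3K4me3 promoter peak, and 21.7% and 29.5% an H3K27me3 promoter peak.

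Bcam, the Lutheran blood group glycoprotein, was the related gene in the state of Icam1. Its promoter went from 38.5% to 0% under H3K27me3 and from 0% to 8.45% under H3K4me3, with a fold enrichment of 6.16 for the new H3K4me3 peak. As at Icam1, the H3K27me3 loss was not called when peaks with a −log10 q under 2 were left out. Nectin1, an adherens junction protein, had the state of Icam5, since its promoter went from 50% to 0% under H3K27me3 and from 37.7% to 43.7% under H3K4me3. The other genes with H3K4me3 in wt+TNFα alone were Cd99l2, Mcam and Msn, over 27.2%, 9.61% and 25.8% of their promoters. All of them were also under H3K27me3 in wt+TNFα. With Bcam they make 4 of the 41 related genes, against 1.49% of protein-coding genes. When only peaks above the median −log10 q were kept, neither they nor Bcam gained H3K4me3. With equal numbers of peaks in both lists Msn did not gain it.

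H3K27me3 in wt+TNFα alone was called at 6 of the 41 related genes, against 9.96% of all symbols. The integrin subunits Itgad and Itgae had 12.5% and 52.9% of their promoters under it, and the endothelial gene Pecam1 52.7%. The calls at these 3 genes were absent when H3K27me3 peaks with a −log10 q under 2 were left out, and those at Itgad and Itgae also with equal numbers of peaks in both lists. Cd99l2 and L1cam had 100% and 91.1%, and these lie with Msn on chromosome X, where all 3 related genes gained H3K27me3. Itgad, Itgae and Pecam1 had no H3K4me3 peak in either condition.

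**Figure D5:**
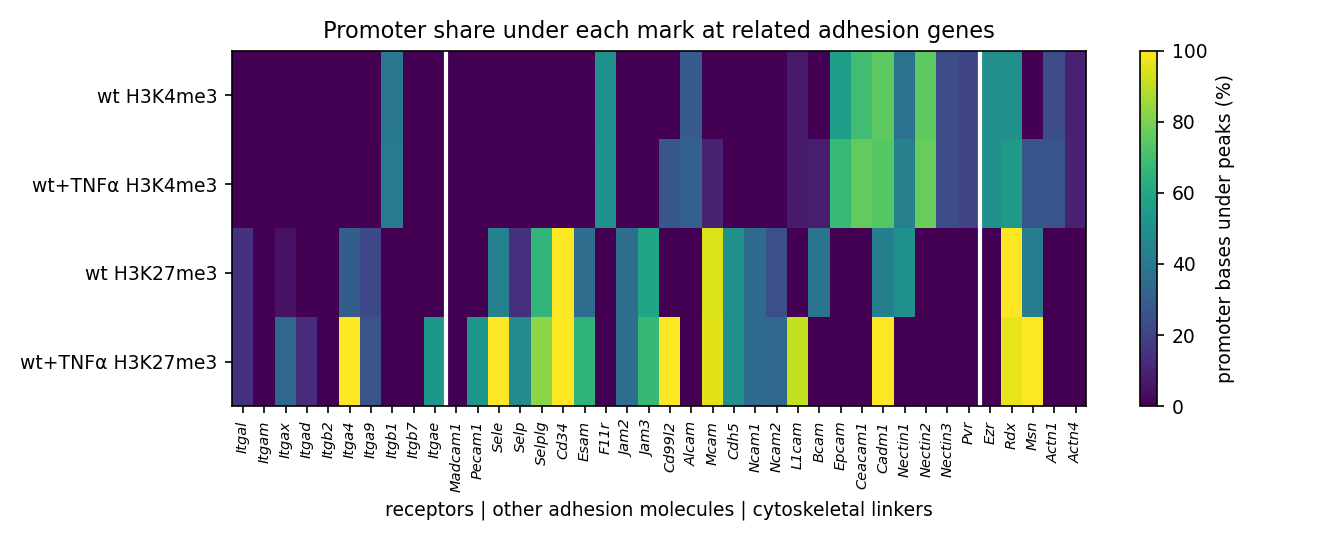
Share of promoter bases under called peaks, in percent by colour, for the related adhesion genes (columns, 1 gene of the list not shown) in the 4 peak lists (rows), with white lines between leukocyte receptors, other adhesion molecules and cytoskeletal linkers. H3K4me3 is nearly absent from the receptors, where Itgb1 alone has it, and over the whole list of 41 genes H3K27me3 is called at 20 in wt and 24 in wt+TNFα.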

How the data were processed

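ChIP-seq of H3K4me3 and H3K27me3 was taken from 1 library per condition and mark, and the inputs were not analysed here. The authors aligned reads to GRCm38/mm10 with BWA (2.2 per the labels) and processed them with SAMtools 1.11. Peaks were called with MACS2, narrow for H3K4me3 and broad for H3K27me3. The MACS2 version is 2.1.0 in the submitters' processing notes and in the paper's methods, while the reporting summary gives another. The deposited lists give a fold enrichment, which is a ratio to local background computed per library, and −log10 p-values and q-values. The peak score in the deposited lists was not used for any result. The names of all lists except that of wt+TNFα H3K27me3 mention a spike-in. Fold enrichments were ranked within lists, and where H3K4me3 values of both conditions stand side by side, they are unscaled values of separate libraries.

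Peak positions were made 1-based, merged within a list, and compared by base in Python 3.11.15 with numpy 2.4.6 and pandas 2.3.3. Plots used matplotlib 3.10.9. Promoters came from a GENCODE GRCm38 annotation with 55450 genes and 141767 transcripts. A gain or loss needed 1 bp. The steps were tested on simulated lists for 2000 genes, where 100% of planted gains and losses were found, with 0 other calls.

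The members, the related list and the markers were chosen with earlier results of these data known. Named genes are the members, genes within 50000 bp of the interval with a promoter peak, related genes with a peak in 1 condition alone, and the 3 nearest genes by promoter values over 100000 bp away. A few other related genes and markers, and the neighbours without a promoter peak, were named after their values were seen. Some genes that this rule names are not reported here. Alternatives were other promoter widths and shapes, 1 start per gene, protein-coding genes alone, an overlap of 200 bp, whole-peak and extended subtraction, filters on −log10 q, equal peak numbers and a longer interval.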

Additional observations from a re-analysis of the deposited data

How the results depend on the processing

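Of 214 recomputed values, 27 counts or lengths and 27 differences in a member's promoter share moved, and no difference in promoter share changed sign. Settings that could not change a member's call, such as protein-coding genes alone, are among them. With a −log10 q above the median of the list, 0 members gained H3K4me3, 1 lost H3K27me3 (Icam5), 2 related genes lost H3K4me3, and 0 bp of the interval lay under H3K4me3 in either condition. With H3K27me3 peaks of −log10 q of at least 2, 1 member (Icam5) and 2 related genes (Nectin1 and Rdx, without Bcam) lost H3K27me3 and 10 related genes gained it. This cut did not act equally on the lists. A −log10 p of 2.25 went with a −log10 q of 0.447 in wt (at Icam1) and 0.915 in wt+TNFα (at Vcam1). With whole peaks subtracted, 1 member gained H3K4me3 and 1 lost H3K27me3 (Icam1 in both), 0 gained H3K27me3, and of the related genes 4 gained and 0 lost H3K4me3 while 8 gained and 2 lost H3K27me3. With peaks extended by 1000 bp, 1 member and 4 related genes gained H3K4me3, 0 related genes lost it, and 12 gained and 2 lost H3K27me3. With 1 start per gene, 0 members and 11 related genes gained H3K27me3 and 2 related genes lost it. With an overlap of 200 bp, 7 related genes gained and 0 lost H3K4me3, and 2 lost H3K27me3. With promoters of 2000 bp, 1 member (Icam5) lost H3K4me3 and 3 gained it, Icam4 among them, so that Icam4 no longer lacked a promoter peak. Fewer peaks or bases enter each stricter setting by construction. No paired analysis was possible because no group has more than 1 library and no result comes from a test.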
